A study of Mus musculus with 12 samples.

Results

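AMPKβ1-/- bone marrow-derived macrophages (BMDMs) were compared with WT BMDMs while the activator PF-06409577 (PF) was present in both. The comparison took the 3 AMPKβ1-/- and the 3 WT libraries that the labels assign to PF, 6 of the 12 RNA libraries of the study. All 4 groups were mouse BMDMs, differentiated for 7 days with L929 medium as the source of M-CSF and then exposed to DMSO vehicle or 10 µM PF for 6 h. The mice were wild type or lacked AMPKβ1 in every tissue, so the deletion was present before and during differentiation. The sources used here give no age, sex or number of animals for these cultures. Nothing says that libraries of a group came from separate mice or dishes, and p-values therefore measure the spread between libraries, which may be technical.

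AMP-activated protein kinase (AMPK) is an energy sensor built from a catalytic α subunit, a scaffolding β subunit and a nucleotide-binding γ subunit. When ATP runs low it phosphorylates enzymes of lipid synthesis such as acetyl-CoA carboxylase, which slows fatty acid and cholesterol synthesis, and it promotes fatty acid oxidation and autophagy. PF binds the pocket between the α and β subunits and is selective for complexes that hold β1, the β isoform that *Prkab1* encodes. In macrophages the kinase is known for its links to lipid handling and to inflammatory gene expression.

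Values are CPM, the library's counts for a gene relative to its total after TMM scaling in edgeR, given for libraries 1, 2 and 3 of a group in that order. A gene is described as higher or lower where its adjusted p was below 0.05, and as called where AMPKβ1-/- and WT also differed by more than 0.8 on the log2 scale in either direction, the limit in the study's methods. Adjusted p-values are from edgeR's quasi-likelihood test with Benjamini-Hochberg adjustment over the 10822 genes that passed the low-count filter. The 6 PF libraries held 9904458 to 13073445 counts, and 3 counts in them were worth 0.231 to 0.281 CPM.

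*Prkab1* itself lies on chromosome 5 from 116013586 to 116024508 (GRCm38). With PF its level was 41.9, 37.3 and 37.7 CPM in WT and 9.41, 9.42 and 7.91 CPM in AMPKβ1-/- BMDMs, so the genotypes were far apart and every library matched its label. The gene was 4.36-fold lower in the null cells (log2 fold change −2.13, SE 0.12, adjusted p = 4.02e-08). The remaining 85 to 120 counts per AMPKβ1-/- library were above the limit of 3 counts. Which part of the gene they come from was not tested.

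The other subunits gave no uniform picture. *Prkaa1*, the α1 catalytic subunit, was at 22.5, 28.4 and 27.9 CPM in WT and at 52.7, 46.2 and 46.0 CPM in AMPKβ1-/- BMDMs (log2 fold change 0.88, adjusted p = 0.000133), and without WT PF library 1 it was at 0.78 and not called. Its sign turned, to −0.39, when the GC content and length of genes entered the fit as an offset for each library. *Prkab2*, which encodes the β2 isoform, was at 4.20, 7.67 and 8.08 CPM against 8.10, 8.64 and 7.53 CPM, with overlapping groups (log2 fold change 0.28, adjusted p = 0.342). *Prkag1* and *Prkag2*, both γ subunits, stood at −0.19 (adjusted p = 0.119) and 0.18 (adjusted p = 0.161). *Prkaa2* was under the filter, at 4 counts or fewer in each PF library.

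Of the kinases and partners upstream of AMPK, 8 were tested. *Cab39* (0.69), the scaffold of the LKB1 complex, and *Map3k7* (0.54), which encodes TAK1, were higher, while the LKB1 partner *Stradb* (−0.47) was lower, all as log2 fold changes. With the offset *Map3k7* turned to −0.16 and was no longer past the test.

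**Figure D1:**
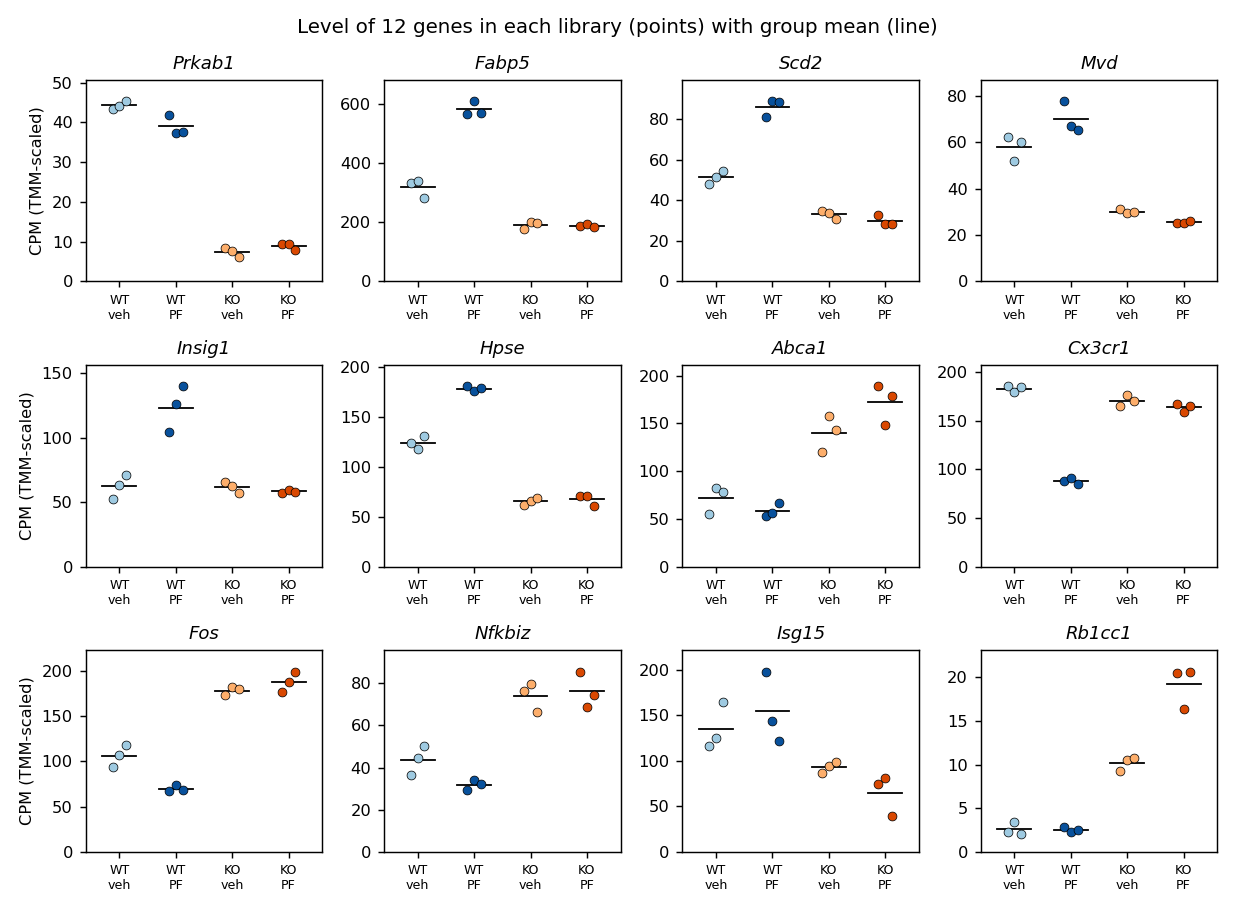
Level in CPM (vertical axes, linear, starting at 0) of 12 genes in every library of the 4 groups (horizontal axes), with points for libraries and lines for group means. *Prkab1*, *Fabp5*, *Scd2*, *Mvd*, *Insig1*, *Hpse* and *Isg15* are lower in each AMPKβ1-/- PF library than in each WT PF library, and *Abca1*, *Cx3cr1*, *Fos*, *Nfkbiz* and *Rb1cc1* are higher.

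Across all tested genes, 1320 (12.2%) were called higher and 223 (2.06%) were called lower in AMPKβ1-/- BMDMs with PF. On the adjusted p alone the numbers were close to even, with 2613 genes (24.1%) higher and 2481 (22.9%) lower. Counts in the gene lists below are to be set beside these shares of all genes. Groups of 3 libraries did not overlap for 3236 genes (29.9%) in the higher and 3250 genes (30%) in the lower direction. The called genes that were higher had a median log2 fold change of 1.26, and those that were lower −1.02.

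GC content moved with this split. Relative to the mean of all libraries, log2 CPM changed by 0.372, 0.169 and −0.055 per 10 percentage points of gene GC content in the WT PF libraries and by −0.523, −0.338 and −0.449 in the AMPKβ1-/- PF libraries. The means, 0.162 ± 0.214 and −0.437 ± 0.0928 (SD, n = 3), did not overlap between genotypes (exact permutation test, two-sided p = 0.1, the smallest that 3 against 3 libraries allow). The 1080 genes of lowest GC content had a median log2 fold change of 1.01 and held 641 of the genes called higher. With both GC content and gene length removed from every library as an offset, 557 genes (5.15%) were called higher and 313 (2.89%) lower. The share of calls that were higher was 85.5% without and 64.0% with the offset. Of the original calls, 506 higher and 144 lower genes were still called, and the part of GC content in any single difference was not tested.

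**Figure D2:**
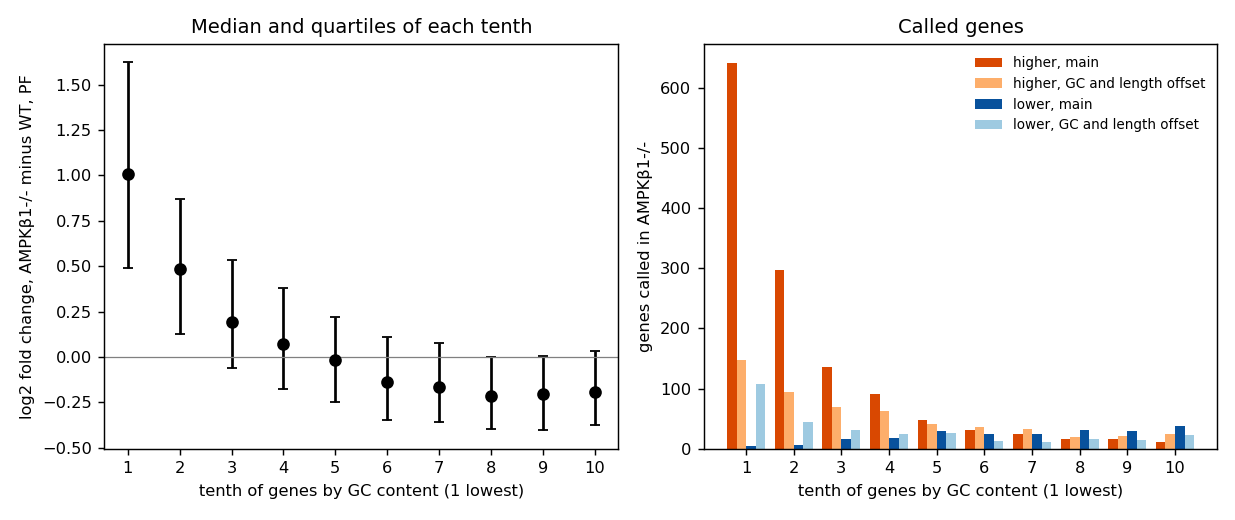
Left, log2 fold change of AMPKβ1-/- against WT with PF (vertical axis) in 10 bins of tested genes ordered by GC content (horizontal axis), with points for medians and bars for quartiles. Right, number of genes called in each bin (vertical axis, starting at 0), without and with the GC and length offset: the bin of lowest GC content holds 641 genes called higher without the offset and 148 with it.

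Genes of cholesterol synthesis were mostly lower in AMPKβ1-/- BMDMs. The pathway builds farnesyl diphosphate from acetyl-CoA through mevalonate, joins it to squalene and closes the sterol rings, and its genes are classical targets of the transcription factor SREBP2. Of the 21 enzymes tested, 18 were lower and 1 was higher on the adjusted p, against 22.9% and 24.1% of all genes. By the stricter rule 9 were called lower and 1 higher. The median log2 fold change of the list was −0.74, against 0.00 for all genes, and it was −0.78 with the offset, where 20 enzymes were lower. *Mvd*, which makes isopentenyl diphosphate from mevalonate diphosphate, was at 77.7, 67.1 and 65.5 CPM in WT and at 25.2, 25.2 and 25.9 CPM in AMPKβ1-/- BMDMs. The 3 null libraries lay within 1 CPM of each other and far under the WT libraries (2.75-fold lower, log2 fold change −1.46, adjusted p = 1.28e-07). *Fdps*, the farnesyl diphosphate synthase, fell from 193, 170 and 149 CPM to 65.7, 67.3 and 60.1 CPM (log2 fold change −1.41, adjusted p = 2.93e-07).

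*Fdft1*, the squalene synthase, had 82.9, 82.5 and 77.8 CPM in WT and 36, 36.6 and 32.0 CPM in AMPKβ1-/- BMDMs (log2 fold change −1.22, adjusted p = 2.67e-07). *Cyp51*, the lanosterol demethylase, had 90.2, 95.7 and 104 CPM against 51.4, 47.8 and 45.2 CPM (log2 fold change −1.01, adjusted p = 7.06e-07). For both enzymes the null libraries were close to each other and no library crossed to the other genotype. The remaining enzymes, named here after their values were seen, shared the direction with few exceptions. *Lss* (−1.01), *Acat2* (−0.96), *Msmo1* (−0.88) and *Dhcr7* (−0.80) were also called lower. *Dhcr7* sat at the limit of 0.8 and lost its call in 11 of the 17 other settings.

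The other 3 enzymes differed. *Ggps1*, which makes geranylgeranyl diphosphate for protein prenylation and not for sterols, was higher, at 14.1, 12.2 and 12.4 CPM against 6.09, 6.27 and 8.62 CPM in WT (log2 fold change 0.87, adjusted p = 0.000421), but it was not called with the offset (0.48) or without WT PF library 1 (0.78). *Hmgcs1*, an early synthase of the pathway, was at 55.6, 75.7 and 102 CPM in WT and at 58.3, 48.8 and 59.3 CPM in the null cells, with overlapping groups (log2 fold change −0.49, adjusted p = 0.0511). *Idi1*, the isopentenyl diphosphate isomerase, was at 13.6, 18.1 and 24.5 CPM against 21.3, 17 and 21.7 CPM (log2 fold change 0.09, adjusted p = 0.762). Its sign turned to −0.10 without WT PF library 1 and to −0.76 with the offset.

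Promoters of the cholesterol synthesis enzymes are shown, and whether their motifs have a part in the differences was not tested. RefSeq (GRCm38.p6) held a promoter window, 250 bases before to 50 after the start, for 16 of the 21 enzymes. The letters CCAAT, which the factor NF-Y reads, were found on either strand (ATTGG on the opposite one) in 14 of the 16 windows, or 87.5%, against 37.4% of all 32851 windows and 37.8% of the 11225 windows of tested genes. TCACNCCAC, the letters of a sterol regulatory element, occurred in 1 of the 16 (6.25%), that of *Hmgcs1*, against 1.24% of all windows. For each enzyme the first window of the gene was taken. The windows of all and of tested genes can count a gene more than once, so the shares are not in like units. Motif and direction did not match gene by gene. The windows without CCAAT were those of *Acat2* and *Dhcr7*, both called lower. *Ggps1*, which was higher, had 3 CCAAT matches, and *Idi1* and *Hmgcs1*, which did not pass the test, had 2 and 4. The bases from 250 to 51 before the start follow, 5′ to 3′ along the gene, with matches of either motif in capitals, for the enzyme with the largest fall, the gene with the sterol element match, a called enzyme with several CCAAT matches, and *Insig1*. No match of one motif shared a base with a match of the other. The windows are chr13:119690101-119690300 on the plus strand for *Hmgcs1*, chr8:122443473-122443672 on the minus strand for *Mvd*, chr8:64733629-64733828 on the minus strand for *Msmo1* and chr5:28071162-28071361 on the plus strand for *Insig1*.
Hmgcs1: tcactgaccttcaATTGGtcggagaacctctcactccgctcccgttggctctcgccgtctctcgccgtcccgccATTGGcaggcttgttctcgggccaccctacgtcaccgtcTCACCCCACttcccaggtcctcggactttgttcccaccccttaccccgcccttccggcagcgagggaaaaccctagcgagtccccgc
Mvd: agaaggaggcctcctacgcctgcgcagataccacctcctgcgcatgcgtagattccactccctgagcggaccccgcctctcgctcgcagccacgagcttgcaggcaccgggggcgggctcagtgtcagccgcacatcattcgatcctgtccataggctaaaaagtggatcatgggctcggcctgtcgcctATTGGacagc
Msmo1: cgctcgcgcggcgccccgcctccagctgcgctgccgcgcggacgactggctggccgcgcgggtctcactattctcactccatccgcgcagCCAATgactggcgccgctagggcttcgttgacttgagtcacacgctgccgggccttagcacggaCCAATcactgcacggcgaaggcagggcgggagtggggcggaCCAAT
Insig1: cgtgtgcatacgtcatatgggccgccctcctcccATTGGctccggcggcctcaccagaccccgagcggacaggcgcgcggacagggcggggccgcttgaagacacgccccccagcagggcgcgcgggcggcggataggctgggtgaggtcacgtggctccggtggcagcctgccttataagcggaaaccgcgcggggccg

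The regulators of this pathway followed its direction in part. *Insig1*, which holds the SREBP and SCAP complex in the endoplasmic reticulum and is itself an SREBP target, was at 104, 126 and 140 CPM in WT and at 57.4, 59.7 and 58.0 CPM in AMPKβ1-/- BMDMs (log2 fold change −1.08, adjusted p = 6.94e-06). *Srebf2* was lower by a smaller step (−0.40). *Mbtps2*, a protease that releases SREBP, was called higher (0.85) but not with the offset (0.11), nor without WT PF library 1 (0.71) or AMPKβ1-/- PF library 1 (0.76). In all 10 members tested, 2 were higher and 3 lower on the adjusted p.

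Of 15 genes of fatty acid synthesis and desaturation, 8 were lower and 2 higher (median log2 fold change −0.27), and 1 was called. That gene was *Scd2*, a stearoyl-CoA desaturase, at 81.0, 88.7 and 88.2 CPM in WT and at 32.5, 28.1 and 28.5 CPM in the null cells (2.90-fold lower, adjusted p = 6.25e-08). *Fasn*, the fatty acid synthase, was lower by 0.72 on the log2 scale (log2 fold change −0.72, adjusted p = 0.000144) and *Fads2*, the Δ6 desaturase, had a log2 fold change of −0.46. *Acsl1* and *Me1* were the higher members, named after their values were seen, at log2 fold changes of 0.24 and 0.45. Leaving out 1 PF library left 0 to 1 members higher and 7 to 8 lower. With the offset 1 member was higher and 8 were lower, 3 of them called. *Fabp5*, a fatty acid-binding protein of macrophages, had the smallest p of all genes, at 568, 611 and 571 CPM in WT and at 188, 193 and 184 CPM in AMPKβ1-/- BMDMs (3.10-fold lower, log2 fold change −1.63, adjusted p = 2.14e-08).

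*Abca1*, the transporter that exports cholesterol to apolipoprotein A-I and a target of the liver X receptors (LXR), moved the other way. Its level was 52.6, 55.7 and 67.1 CPM in WT and 189, 149 and 179 CPM in AMPKβ1-/- BMDMs (2.94-fold higher, log2 fold change 1.56, adjusted p = 8.26e-06, and 1.00 with the offset). It was the single called member of 13 LXR and efflux genes, of which 1 was higher and 5 were lower. The lysosomal cholesterol carriers *Npc2* (−0.57) and *Npc1* (−0.36) were among the lower ones. *Abcg1*, also an LXR target and named after its values were seen, had a log2 fold change of −0.04 (adjusted p = 0.748).

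Of 20 fatty acid oxidation genes, 9 were lower, 2 were higher and 0 were called, with a median log2 fold change of −0.26. The lower genes numbered 5 without WT PF library 1. With the offset 7 were lower, 2 higher and 1 called lower, and the median was −0.13. *Cpt1a*, which admits long-chain fatty acids to mitochondria, was one of the higher genes (0.42, adjusted p = 0.000209), while the β-oxidation enzymes *Echs1* (−0.56) and *Decr1* (−0.56) and the electron carrier *Etfb* (−0.56) were lower.

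**Figure D3:**
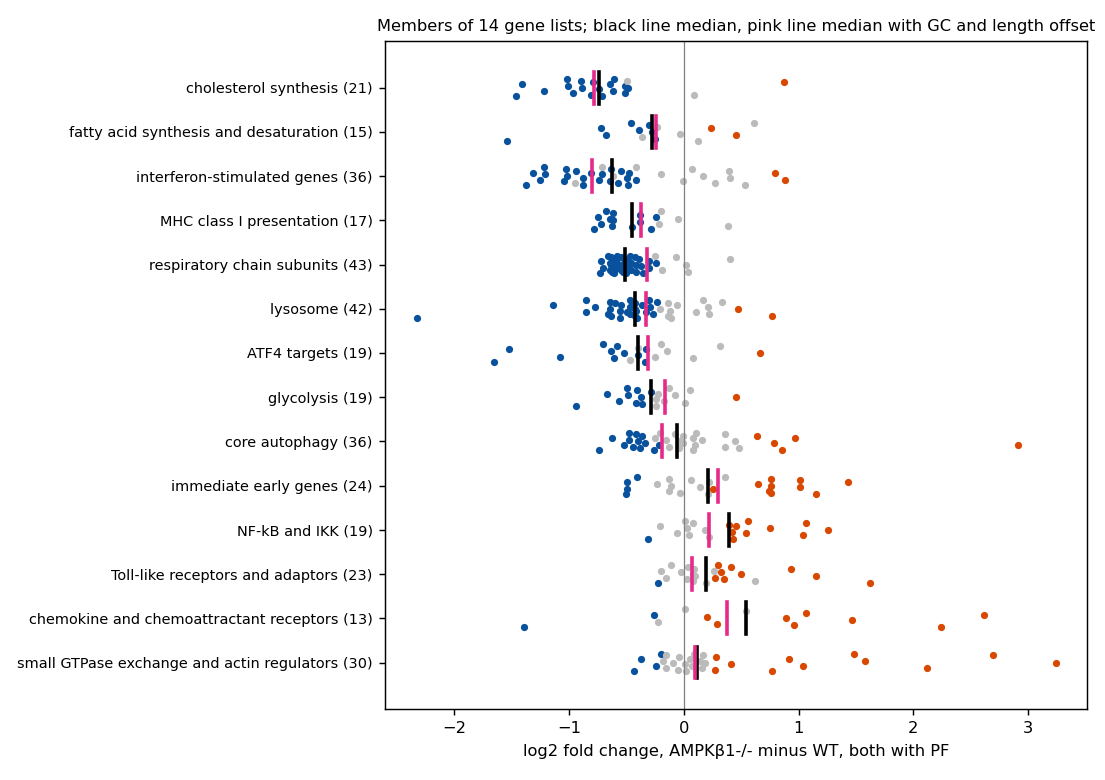
Log2 fold change of AMPKβ1-/- against WT with PF (horizontal axis) for each tested member of 14 gene lists (rows, number of members in brackets). Orange points were higher and blue points lower on the adjusted p, grey points were neither, and black and pink lines mark the list median without and with the GC and length offset: medians run from −0.74 for cholesterol synthesis to 0.54 for chemoattractant receptors.

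Nuclear-encoded subunits of the respiratory chain shifted together by small steps. Of 43 tested, 37 were lower and 0 higher, though 0 passed the fold limit, and the median log2 fold change was −0.51. With the offset 36 were lower and the median was −0.32. *Cox4i1*, a subunit of cytochrome c oxidase, was at 697, 683 and 588 CPM in WT and at 406, 424 and 377 CPM in the null cells (log2 fold change −0.70, adjusted p = 4.50e-05). *Cox5b* (−0.72), *Cox6a1* (−0.61) and the ATP synthase subunit *Atp5o* (−0.66) lay in the same range.

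Glycolysis showed a like direction in fewer genes, with 10 of 19 lower, 1 higher and 1 called (median log2 fold change −0.29, and −0.17 with the offset). The called gene was the myeloid hexokinase *Hk3*, at 495, 449 and 385 CPM in WT and at 234, 243 and 218 CPM in AMPKβ1-/- BMDMs (log2 fold change −0.94, adjusted p = 2.17e-06), which was no longer called with the offset (−0.78). *Gapdh* (−0.67), *Pgam1* (−0.56) and *Aldoc* (−0.49) were also lower.

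The lysosome list had 29 of 42 members lower and 2 higher, 4 of them called lower (median log2 fold change −0.42, and −0.32 with the offset). *Cd63*, a membrane protein of late endosomes and lysosomes, was at 774, 794 and 731 CPM in the null cells against 1320, 1460 and 1360 CPM in WT (log2 fold change −0.85, adjusted p = 6.81e-06, and −0.68 with the offset). *Ctsz*, a cathepsin (−0.66), *Hexa*, a hexosaminidase subunit (−0.64), and *Atp6v0d1*, a subunit of the proton pump (−0.77), were lower in every library. *Ctsk*, cathepsin K, was called lower (−1.14, adjusted p = 5.14e-05), as was the pump subunit *Atp6v0d2* (−0.85), which lost its call without WT PF library 3 (−0.70) or AMPKβ1-/- PF library 2 (−0.74). Both are also osteoclast genes, and the summed level of the 7 osteoclast markers in the table was 136 to 145 CPM in WT and 113 to 129 CPM in AMPKβ1-/- BMDMs. The part of those markers in the lysosome list was not tested. The fourth call, *Gla*, rested on 0.0785 to 2.62 CPM.

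Of 36 core autophagy genes, 13 were lower and 5 higher, with 3 called higher. The higher genes numbered 9, with 6 called, without WT PF library 3. *Rb1cc1*, which encodes FIP200, a scaffold of the ULK1 complex, had the largest difference among them, at 2.83, 2.25 and 2.54 CPM in WT and at 20.5, 16.4 and 20.6 CPM in the null cells (7.5-fold higher, log2 fold change 2.91, adjusted p = 8.41e-08, and 2.30 with the offset). The kinase *Ulk2* was higher below the fold limit (0.79, and 0.36 with the offset). *Map1lc3a* (−0.73) and *Gabarapl1* (−0.48), which encode ATG8 proteins of the autophagosome, were lower.

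Among 24 genes of TFEB, mTORC1 and folliculin, 6 were higher and 7 lower. *Fnip1*, a folliculin partner that AMPK phosphorylates, was at 10.6, 8.14 and 13 CPM in WT and at 48.9, 36.1 and 44.9 CPM in AMPKβ1-/- BMDMs (log2 fold change 2.02, adjusted p = 3.76e-05), and with the offset it was at 0.71 and not called. *Mitf*, a relative of TFEB, was called higher under both (1.00 and 1.01). *Flcn* (−0.34) and *Akt1s1* (−0.48), which encodes PRAS40, were lower.

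Targets of the stress factor ATF4 were mostly lower, 11 of 19 with 1 higher and 3 called lower (median log2 fold change −0.40). *Phgdh*, the entry enzyme of serine synthesis, was at 21.9, 21.1 and 18.2 CPM in WT and at 7.14, 6.05 and 8.28 CPM in the null cells (log2 fold change −1.52, adjusted p = 1.95e-06). *Trib3* was also called (−1.08, adjusted p = 0.000101), and *Ddit3*, which encodes CHOP (−0.58), and *Mthfd2* (−0.63) were lower. Of 25 NRF2 and antioxidant genes, 8 were lower, 3 were higher and 0 were called. *Gpx4*, the lipid peroxide reductase (−0.74), *Prdx6* (−0.51), *Tkt* (−0.48) and *Keap1*, the inhibitor of NRF2 (−0.43), were the lower members with the smallest p.

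Immediate early genes, which respond within minutes to signals, were split. Of 24 tested, 10 were higher and 4 lower, with 4 called higher and 0 called lower (median log2 fold change 0.21, and 0.30 with the offset). Among all tested genes 12.2% were called higher and 2.06% lower. *Fos*, a part of AP-1, was at 67.0, 73.4 and 68.7 CPM in WT and at 177, 187 and 199 CPM in AMPKβ1-/- BMDMs. The 2 groups were more than 100 CPM apart (2.69-fold higher, log2 fold change 1.43, SE 0.09, adjusted p = 7.56e-08).
*Nr4a1*, a nuclear receptor, was also called (1.15), at 11.4, 14.4 and 13.5 CPM against 6.86, 6.27 and 4.69 CPM in WT, as was *Dusp1*, a MAP kinase phosphatase (1.01). The fourth call was *Myc* (1.01), and the antiproliferative gene *Btg2* was higher below the fold limit (0.76). The lower members included *Jun* (−0.50), *Atf3* (−0.41), *Egr1* (−0.49) and *Egr2* (−0.49), so the list did not move as 1 block.

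The genes of NF-κB and its IKK kinases were higher more often than lower, 10 against 1 of 19, with 3 called. Among all tested genes 24.1% were higher, 22.9% were lower and 12.2% were called higher, so the called share was near that of all genes. The median log2 fold change of the list was 0.40, and 0.22 with the offset, where again 10 were higher. *Nfkbiz*, a nuclear IκB protein that NF-κB induces, was at 29.3, 33.9 and 32.4 CPM in WT and at 85.5, 68.9 and 74.6 CPM in AMPKβ1-/- BMDMs (log2 fold change 1.26, adjusted p = 2.23e-06). *Bcl3*, also a nuclear IκB protein, was at 28.6, 27.9 and 21.6 CPM against 41.0, 47.4 and 42.7 CPM (log2 fold change 0.75, adjusted p = 0.000124). *Nfkb1*, which encodes p105 and p50 (0.43), and the inhibitor *Nfkbie* (0.40) had smaller differences, and the members include inhibitors as well as activators of the pathway.

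Of 23 Toll-like receptors and adaptors, 9 were higher, 1 was lower and 3 were called higher, but 0 of the 23 were called with the offset. The share called higher was near the 12.2% of all tested genes. *Tlr4*, the lipopolysaccharide receptor, was at 14, 16.4 and 26.4 CPM in WT and at 65.4, 48.3 and 62.6 CPM in the null cells (log2 fold change 1.63, adjusted p = 0.000148, and 0.45 with the offset). The single-stranded RNA receptor *Tlr8* had 1.15 and, with the offset, 0.24. *Traf3* (0.50 and 0.36) and *Irak3* (0.41 and 0.30), which restrain the pathway in part, kept their direction.

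Cytokine and chemokine genes were few and divided. Of 24 cytokine genes fixed in the list 15 passed the filter, of which 1 was higher and 5 were lower. *Il1rn*, the antagonist of the interleukin-1 receptor, was at 22.1, 15.9 and 16.1 CPM in WT and at 7.58, 7.22 and 8.09 CPM in AMPKβ1-/- BMDMs (log2 fold change −1.24, adjusted p = 2.10e-05). *Il1b*, which encodes the agonist, was the higher one, at 2.06, 3 and 2.46 CPM against 4.88, 5.18 and 5.12 CPM (log2 fold change 1.02, adjusted p = 0.00117). *Tnfsf12*, which encodes TWEAK (−0.68), and *Il18bp*, the interleukin-18 antagonist (−0.70), were lower.

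Of 22 chemokine ligands 12 passed the filter, with 3 higher and 3 lower. *Ccl3*, a macrophage inflammatory protein, was at 84.9, 79.7 and 79.8 CPM in WT and at 42.2, 42.7 and 34.6 CPM in the null cells (log2 fold change −1.03, adjusted p = 6.22e-06). *Ccl4* (−1.04) and *Ccl5* (−1.24), chemokines of the same class, were called lower as well. *Cxcl14* went up, from 39.7, 29.8 and 33.6 CPM to 77.3, 88.3 and 92.5 CPM (log2 fold change 1.32, adjusted p = 4.97e-07).

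Receptors for chemokines and other attractants were higher in 8 and lower in 2 of 13 tested, and 6 were called higher and 1 lower. With the offset 5 were higher and 4 lower, with 3 called higher and 2 lower, and the median went from 0.54 to 0.38. That median was 0.31 without WT PF library 1 and 0.81 without WT PF library 3. *Cx3cr1*, the fractalkine receptor of monocytes and resident macrophages, was at 88.0, 91.4 and 85.2 CPM in WT and at 168, 159 and 165 CPM in AMPKβ1-/- BMDMs (log2 fold change 0.89, adjusted p = 3.79e-07). *Ccr2* was at 1.20, 1.59 and 3 CPM against 9.93, 8.56 and 9.58 CPM (log2 fold change 2.24, and 0.98 with the offset). The decoy-like receptor *Ccrl2* was the called fall (−1.39, adjusted p = 1.60e-05).

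The list of inhibitory myeloid receptors had 7 higher and 1 lower of 15 tested, though its median moved from 0.43 to 0.00 with the offset. *Siglece*, a sialic acid receptor that restrains myeloid cells, was at 4.72, 6.08 and 5.23 CPM in WT and at 14.5, 11.2 and 11.2 CPM in the null cells (log2 fold change 1.20, adjusted p = 3.21e-05). *Clec4a2* was called higher (1.11, and 0.38 with the offset), and *Cd33* was the called fall (−0.93). *Cd300ld*, a list member that encodes an activating receptor, was at 0.67.

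Of 10 Fc receptors and β2 integrins, 6 were lower and 2 higher. The shared Fc chain *Fcer1g* (−0.77) and the receptor *Fcgr3* (−0.60) were lower, whereas the integrin chains *Itgam* and *Itgal* were higher. *Itgam*, which encodes CD11b, was at 423, 435 and 478 CPM in WT and at 716, 684 and 730 CPM in AMPKβ1-/- BMDMs (log2 fold change 0.67, adjusted p = 2.18e-05). Of 20 scavenger and efferocytosis genes, 9 were lower and 5 higher. The bridging proteins for dying cells *Mfge8* (−0.99) and *Gas6* (−0.79), the receptor *Axl* (−0.65) and the integrin chain *Itgb3* (−1.68) were lower. *Mfge8* was not called with the offset (−0.77).

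Interferon-stimulated genes were lower in 22 and higher in 2 of 36, with 12 called lower and 1 higher (median log2 fold change −0.62, and −0.80 with the offset). *Isg15*, a ubiquitin-like protein, was at 198, 144 and 122 CPM in WT and at 74.1, 80.9 and 39.4 CPM in the null cells (log2 fold change −1.25, adjusted p = 0.00135). *Irf7*, a master factor of the response, was at 700, 529 and 435 CPM against 303, 305 and 210 CPM (log2 fold change −1.02, adjusted p = 0.000400). WT PF library 1 was the highest and AMPKβ1-/- PF library 3 the lowest for both genes. Without WT PF library 1 the list had 13 lower members with 4 called, and without AMPKβ1-/- PF library 3 it had 15 lower with 3 called. *Usp18*, which switches off interferon signalling (−1.38), *Oas1a* (−0.74) and the tethering protein *Bst2* (−0.58) were lower, and the double-stranded RNA sensors *Eif2ak2* (0.88) and *Ifih1* (0.80) were the higher members. *Eif2ak2* lost its call without WT PF library 1 (0.77) or AMPKβ1-/- PF library 1 (0.74). With the offset the sensors had log2 fold changes of 0.19 and −0.03 and passed no test.

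Antigen presentation was tested in 2 lists. Of 17 genes of the MHC class I pathway, 13 were lower, 0 were higher and 0 were called (median log2 fold change −0.45). The heavy chains *H2-T22* (−0.78), *H2-Q7* (−0.75) and *H2-T23* (−0.72) and the immunoproteasome subunit *Psmb8* (−0.64) led them. With the offset 9 class I genes were lower, 0 higher and 1 called lower, and their median was −0.37. Class I heavy chain genes include closely related copies, so counts of a gene may be shared with such a copy. Of 8 class II genes tested, *Ciita*, the transactivator of the class (0.62), was higher and the peptide loaders *H2-DMb1* (−0.44) and *H2-DMa* (−0.40) were lower. With the offset 4 were higher and 0 lower, and the loaders had −0.22 and −0.17.

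**Figure D4:**
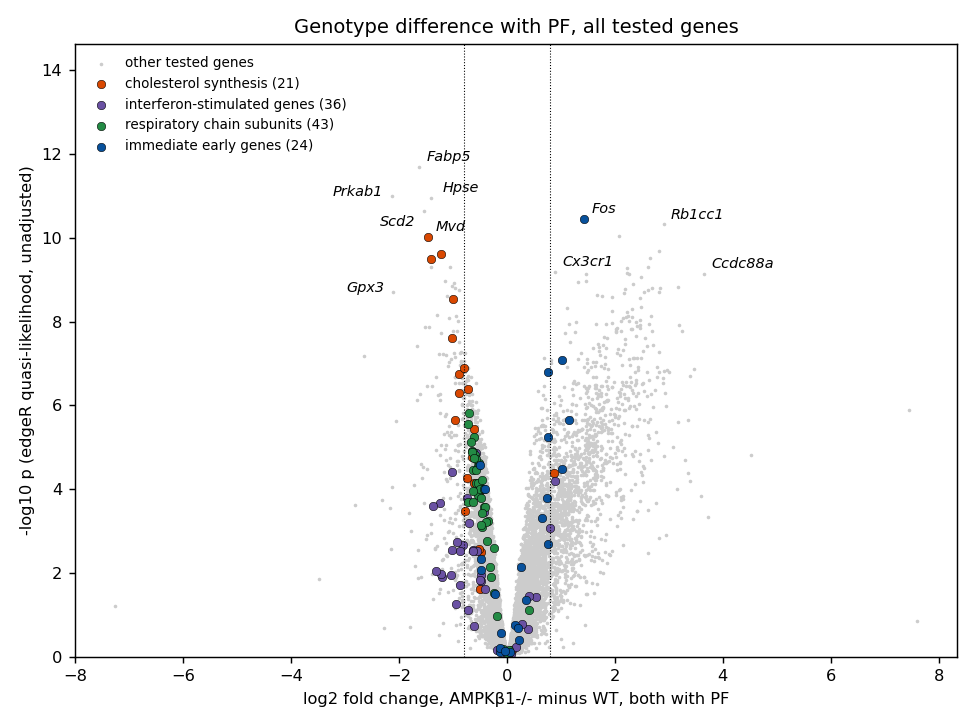
Log2 fold change of AMPKβ1-/- against WT with PF (horizontal axis) and −log10 of the unadjusted p (vertical axis) for the tested genes in grey, with cholesterol synthesis, interferon-stimulated, respiratory chain and immediate early genes in colour and dotted lines at a log2 fold change of 0.8 in either direction. Cholesterol synthesis genes reach −1.46 (*Mvd*), the respiratory chain genes stay inside the dotted lines, and *Fos* lies at 1.43.

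Called genes whose groups did not overlap and whose higher group averaged at least 5 CPM were ranked by log2 fold change. For rises this ranking favours genes with low levels in WT, as the limit of 5 CPM applies to the higher group alone. *Ccdc88a*, which encodes the actin regulator girdin, was at 1.72, 0.749 and 1.15 CPM in WT and at 16.4, 14.3 and 15.8 CPM in AMPKβ1-/- BMDMs (12.6-fold higher, log2 fold change 3.66, adjusted p = 3.79e-07, and 2.69 with the offset). *Styx*, a pseudophosphatase, followed at 3.30 (2.84 with the offset), and without WT PF library 3 it was at 4.78. The other 8 of the 10 largest rises had log2 fold changes of 2.83 to 3.24. They included *Arhgap5*, *Zfp729b*, *Chm*, *Lcorl*, *Rb1cc1*, *Lrrcc1* and *Tasor*. With the offset *Rb1cc1* stood at 2.30, *Arhgap5* fell back to 1.06 and *Tasor* to 0.89. *Ppig* (2.07) and *Phip* (2.65) had p-values among the smallest of the higher genes, and with the offset *Ppig* was at 0.60 and not called.

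*Arhgap5* also belongs to the list of regulators of small GTPases and actin. Of 30 tested, 11 were higher and 4 lower, and 7 were called higher, 3 of them with the offset. *Rock1*, a kinase that acts on myosin, was at 6.69, 4.40 and 4.15 CPM in WT and at 30.5, 26.5 and 42.0 CPM in the null cells (log2 fold change 2.70, adjusted p = 5.36e-07, and 1.76 with the offset). Its relative *Rock2* was at 2.12 (0.98 with the offset), and the formin *Diaph2* at 1.58 (0.40 with the offset).

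The largest falls by the same rule included enzymes, factors and a cytokine. *Gpx3*, a secreted glutathione peroxidase, was at 50.7, 46.3 and 38.8 CPM in WT and at 10.8, 12.6 and 7.81 CPM in AMPKβ1-/- BMDMs (4.32-fold lower, log2 fold change −2.11, adjusted p = 5.62e-07, and −1.85 with the offset). *Hpse*, the heparan sulfate-cleaving heparanase, was at 180, 175 and 179 CPM against 70.8, 70.4 and 61.1 CPM (log2 fold change −1.40, adjusted p = 4.02e-08). *Tox2*, an HMG-box factor (−1.67), *Gdf15*, a stress-induced cytokine (−1.62), and *Eps8l1* (−1.59) also stood among the 10 largest falls. *Lrrc17* had the largest fall by this rule but an uneven one, at 4.97, 31.0 and 24.8 CPM in WT and at 4.53, 4.63 and 4.46 CPM in the null cells (log2 fold change −2.15, adjusted p = 0.00871), so WT PF library 1 lay beside the null libraries.

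The vehicle libraries give the genotype difference without PF. In vehicle, measured in 6 other libraries, 1740 genes (16.1%) were called higher and 191 (1.76%) lower in AMPKβ1-/- BMDMs, and on the adjusted p alone 29.7% of genes were higher and 30% lower. Of the genes called with PF, 1136 higher genes, or 86.1%, were also called in vehicle, which is 65.3% of the vehicle calls. For the lower genes the number was 84, or 37.7% of the PF and 44.0% of the vehicle calls. In vehicle the genes called higher with PF had a median of 1.37 on the log2 scale and those called lower −0.70. The vehicle libraries also differed in GC slope, at 0.735, 0.364 and 0.541 in WT and −0.1, −0.363 and −0.352 in AMPKβ1-/- BMDMs. With the GC and length offset 417 genes were called higher and 211 lower in vehicle. The part of the GC trend in the calls shared by PF and vehicle was not tested. The genotype difference itself changed with PF, as an interaction called by the same rule, for 8 genes (0.0739%) in the positive and 9 (0.0832%) in the negative direction. Before adjustment 863 and 687 genes had p below 0.05.

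The 9 negative genes included members of the lists for cholesterol and fatty acid synthesis and their control, among them *Insig1*, *Cyp51*, *Hsd17b7* and *Scd2*. *Cyp51* was at 58.8, 58.3 and 53.1 CPM in WT and at 49.7, 50.1 and 52.5 CPM in AMPKβ1-/- BMDMs with vehicle. The genotypes lay within 10 CPM of each other with vehicle and further apart with PF (interaction −0.84, adjusted p = 0.00811).
*Insig1* was at 52.4, 63.0 and 71.2 CPM in WT and at 65.4, 62.5 and 57.1 CPM in AMPKβ1-/- BMDMs with vehicle, so the genotypes overlapped (interaction −1.07, adjusted p = 0.0133). *Scd2*, at 48.1, 51.3 and 54.6 CPM against 34.9, 33.8 and 30.5 CPM, was already lower with vehicle, and the difference was larger with PF (interaction −0.90, adjusted p = 0.00811). The sterol reductase *Hsd17b7* had 6.63, 7.66 and 8.16 CPM in WT and 12, 11.9 and 11.4 CPM in the null cells with vehicle, and 13.4, 14.7 and 18.2 CPM against 11.4, 11.8 and 9.77 CPM with PF. Its genotype difference turned from positive to negative (interaction −1.14, adjusted p = 0.0261). Across the 21 cholesterol synthesis genes the median genotype difference was −0.42 with vehicle, where 12 were lower and 4 higher and 2 were called in each direction. Of these genes, 4 had a negative interaction on the adjusted p, against 0.176% of all genes. Other list medians with vehicle were −0.38 for the respiratory chain, −0.39 for lysosome, −0.46 for glycolysis and −0.53 for MHC class I. With PF they were −0.51, −0.42, −0.29 and −0.45. The interferon list had −0.13 with vehicle and −0.62 with PF, and the NF-κB list −0.06 and 0.40. Yet 0 of the 36 interferon genes had an interaction on the adjusted p in either direction. In the NF-κB list 1 of 19 did, with a positive sign.

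*Fabp5* was at 334, 339 and 284 CPM in WT and at 177, 200 and 200 CPM in AMPKβ1-/- BMDMs with vehicle. It was lower under both conditions and by more with PF (interaction −0.90, adjusted p = 0.00471). The chemokine *Ccl4* was at 16.8, 18.7 and 12.7 CPM against 16.4, 18.9 and 15.6 CPM with vehicle, and only the WT PF libraries stood above that range (interaction −1.13, adjusted p = 0.0417). *Cd274*, which encodes the checkpoint ligand PD-L1, gave −1.10 (adjusted p = 0.0440) and did not pass with the offset (adjusted p = 0.0714). *Gng4*, a G protein γ subunit, gave −1.30.

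*Cx3cr1* had the smallest adjusted p of the interaction (log2 difference 1.00, adjusted p = 0.000174). With vehicle it was at 185, 180 and 184 CPM in WT and at 165, 176 and 170 CPM in AMPKβ1-/- BMDMs. The null libraries with PF were thus near all vehicle libraries and the WT PF libraries were below. *Siglece* had the same order, at 13.9, 11.6 and 11.9 CPM in WT and at 12.8, 11.7 and 11.9 CPM in the null cells with vehicle (interaction 1.24, adjusted p = 0.0199). *Slco2b1*, an organic anion transporter, was at 13.8, 13.6 and 12.1 CPM against 11.8, 12.8 and 10.3 CPM with vehicle and at 6.69, 7.02 and 6.85 CPM against 12.1, 13.5 and 14.5 CPM with PF (interaction 1.13, adjusted p = 0.0192). *Fgd2*, an exchange factor for Cdc42 (0.81), *Fgr*, a Src-family kinase (0.81), *Bcl3* (0.96), *Olfml3* (0.92) and the pseudokinase *Trib1* (0.87) made up the rest.

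The 17 interaction genes depended on single libraries in number. Leaving out 1 library at a time left 1 to 25 positive and 3 to 59 negative genes, the highest of both without WT PF library 1. *Cx3cr1*, *Cyp51*, *Fabp5* and *Scd2* had an adjusted p below 0.05 in each of the 12 leave-outs, though *Cyp51* reached −0.79 in one and so fell short of the fold limit there, and all 17 kept their sign in them. With the offset *Cyp51* (−0.66), *Fabp5* (−0.63), *Bcl3* (0.73), *Fgd2* (0.59), *Fgr* (0.73) and *Trib1* (0.75) had interactions under the fold limit of 0.8 with an adjusted p still below 0.05.

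**Figure D5:**
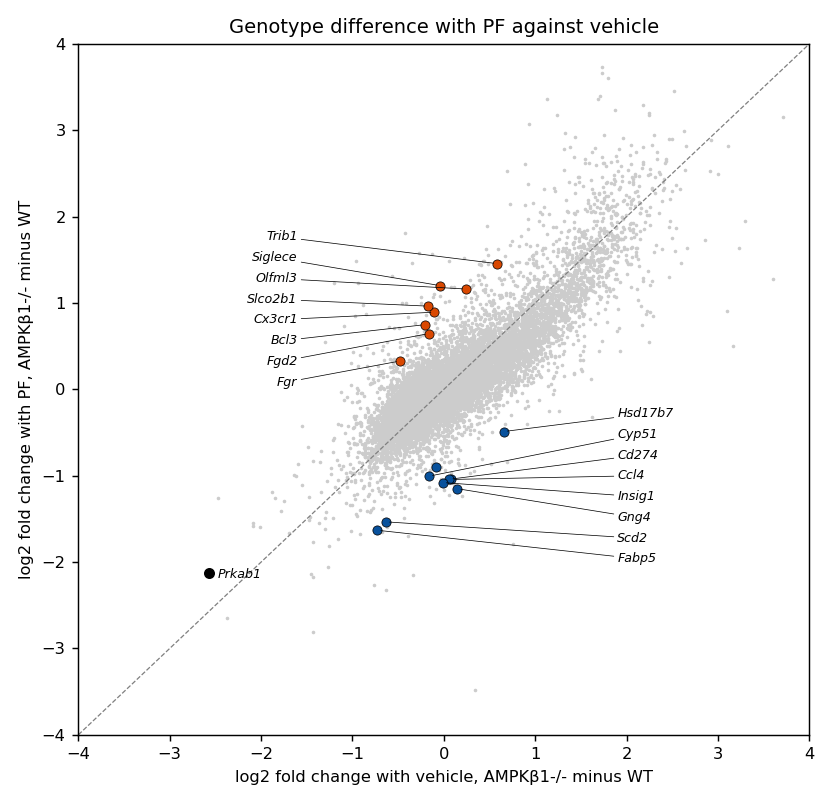
Log2 fold change of AMPKβ1-/- against WT with vehicle (horizontal axis) and with PF (vertical axis) for the tested genes, with the 17 interaction genes in colour and 16 of them named, orange where positive and blue where negative, and *Prkab1* in black. The dashed line marks equal differences, both axes end at 4 in either direction and 7 genes outside them are not drawn: *Prkab1* lies near the line at −2.57 and −2.13, while the named genes lie off it.

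Around the deleted gene, within 5 Mb of *Prkab1*, 74 genes were tested, with a median log2 fold change of −0.20 and a median GC content of 55.7%, against 50.9% for all tested genes. On the adjusted p 28 of them were lower and 2 higher, against 22.9% and 24.1% of all genes. By the stricter rule 0 were called higher and 2 lower (2.7%, against 2.06% of all genes), *Oasl1* (−1.21) and *Rpl37rt* (−1.23). Neither was called with the offset, *Oasl1* lost its call without WT PF library 1 (−0.77) or AMPKβ1-/- PF library 3 (−0.94), and *Rpl37rt* without WT PF library 2 (−0.98) or 3 (−1.09) or AMPKβ1-/- PF library 3 (−1.02). Within 10 Mb 11 of 188 were called higher (5.85%) and 3 lower (1.6%). The 4 Y-linked genes that were tested had counts in all 12 libraries, and all 4 were higher in AMPKβ1-/- BMDMs with PF (median log2 fold change 2.01, and 0.57 with the offset). *Ddx3y* was at 2.23, 2.90 and 3.08 CPM in WT and at 22.5, 15.3 and 20.6 CPM in the null cells (log2 fold change 2.82, and 0.91 with the offset), while *Kdm5d* turned from 0.70 to −0.39 with the offset. Whether cultures differed in the share of male cells was not tested.

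The cells carried macrophage markers under both genotypes. The summed level of 9 of 9 macrophage markers was 25400 to 27900 CPM in WT and 27200 to 27500 CPM in AMPKβ1-/- BMDMs with PF. *Adgre1*, which encodes F4/80, was higher (0.39) and *Cd68* lower (−0.64), while the M-CSF receptor *Csf1r* was at 0.14 (adjusted p = 0.219). Markers of granulocytes, of T and NK cells, of B cells, of mast cells and basophils, and of erythroid cells each summed to under 2 CPM in every PF library. The dendritic list summed to 247 to 287 CPM in WT and 150 to 195 CPM in the null cells, nearly all of it *Bst2*, which is also in the interferon list. The eosinophil list stood at 1.54 to 1.87 against 6.2 to 10.6 CPM, from *Ccr3*, and the fibroblast list at 1.78 to 2.06 against 3.05 to 3.30 CPM. In these bulk libraries fewer cells of a type and less RNA per cell cannot be told apart.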

How the data were processed

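BMDM RNA was sequenced from 12 libraries, 3 in each of 4 groups. The authors deposited estimated counts per gene, written as whole numbers, made with Trim Galore and Salmon. The genome build, annotation and versions are not given in the sources used here. The table held 12960 genes, and its columns could be matched to groups but not to single samples, so library numbers come from the column names. Totals ranged from 8935609 to 14358180. A floor of 3 counts covers counting error only.

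From these counts, edgeR 4.0.16 in R 4.3.3 fitted 4 group means to all 12 libraries (TMM scaling, filterByExpr, robust quasi-likelihood test), and the genotype difference with PF, with vehicle and their difference were tested over 10822 genes. A gene was called past 0.05 for adjusted p and 0.8 in either direction for log2 fold change, the limits of the study's methods, which used DESeq2. Standard errors are approximate and were derived from the F statistic. GC content and transcript length came from GENCODE M21 (GRCm38), matched by symbol for 99.6% of tested genes. The offset was a per-library spline trend (5 degrees of freedom) in both. Alternatives were other scalings and filters, DESeq2 1.42.0, limma-voom (limma 3.58.1), glmTreat, a replicate block and leaving out libraries. The fits were tested on simulated counts that had no GC trend, so that check does not cover the GC trend of these libraries.

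Named genes were the AMPK subunits, the 10 largest rises and falls and 5 smallest p-values in each direction among called genes with no overlap and a mean of at least 5 CPM in the higher group, up to 4 members with the smallest p in each list, called genes within 5 Mb of *Prkab1*, and the 5 called interaction genes with the smallest p in each direction. *Msmo1*, *Acat2*, *Lss*, *Dhcr7*, *Hmgcs1*, *Idi1*, *Ggps1*, *Fgr*, *Olfml3*, *Trib1*, *Cd274*, *Gng4*, *Usp18*, *Isg15*, *Myc*, *Gla* and other list members were named after their values were seen. The comparison, lists and members were chosen with earlier results of these data known. *Xist* was not analysed here, and some genes that the rule names are not reported here.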

Additional observations from a re-analysis of the deposited data

Results flagged for a closer look

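The genotype difference with PF departed from that with vehicle, by a test of the difference itself in edgeR's quasi-likelihood fit to all 12 libraries, for 17 genes, and each value given is the difference with PF minus that with vehicle on the log2 scale. Among the genes reported, it was positive for *Siglece* (1.24), *Slco2b1* (1.13), *Cx3cr1* (1.00), *Bcl3* (0.96), *Olfml3* (0.92), *Trib1* (0.87), *Fgd2* (0.81) and *Fgr* (0.81). In *Trib1* the WT libraries stood at 21.1, 19.9 and 21.4 CPM with vehicle and at 11.2, 11.2 and 9.15 CPM with PF, against 33.3, 30.8 and 29.5 and then 30.1, 28.6 and 27.6 CPM in AMPKβ1-/- BMDMs. It was negative for *Gng4* (−1.30), *Hsd17b7* (−1.14), *Ccl4* (−1.13), *Cd274* (−1.10), *Insig1* (−1.07), *Fabp5* (−0.90), *Scd2* (−0.90) and *Cyp51* (−0.84). In *Cd274* the WT libraries stood at 11.4, 11.7 and 18.8 CPM with vehicle and at 33.5, 31.3 and 33.2 CPM with PF, against 13.9, 15.3 and 14.5 and then 15.8, 17.4 and 14.4 CPM. No group had 4 or more libraries, so single libraries were not tested as outliers.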

How the results depend on the processing

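Of the 176 genes followed under every setting, 158 to 176 kept direction and side of the threshold under the other scalings, filters, tests and the block, apart from glmTreat (133), the filter of at least 10 counts in every library (160 of 163) and the GC and length offset (142). With the offset 23 lost and 6 gained a call and 5 reversed, to −0.39 for *Prkaa1*, −0.11 for *Prkab2*, −0.16 for *Map3k7*, −0.39 for *Kdm5d* and −0.76 for *Idi1*; *Idi1* ranged from −0.10 to 0.34 when 1 PF library was left out, negative without WT PF library 1. The cause was not tested. Leaving out 1 PF library kept 161 to 170. The genes called with PF numbered 2613 higher and 2481 lower on adjusted p alone, 504 and 43 by glmTreat, and 557 higher with the offset, and 133 were lower by library size alone, a scaling that moved the median of all genes by 0.146. With vehicle they numbered 3216 and 3249 on adjusted p alone, 563 and 19 by glmTreat, 417 higher with the offset, 64 lower by library size alone and 120 lower with at least 10 counts in every library. The interaction had 17 positive and 19 negative genes by DESeq2, 26 and 19 on adjusted p alone, 0 and 0 by glmTreat (34 and 17 at unadjusted p below 0.05), and 16 positive with the offset, and leaving out 1 library gave 1 to 25 and 3 to 59. The GC slope difference was −0.381 over the genes above the median level. List medians by library size alone were −0.59 for cholesterol synthesis, −0.27 for lysosome, 0.55 for NF-κB, 0.36 for immediate early genes and −0.36 for the respiratory chain, and with the offset −0.32 for lysosome, 0.22 for NF-κB, 0.30 for immediate early genes and −0.32 for the respiratory chain. Leaving out 1 PF library gave −0.82 to −0.70 for cholesterol synthesis, −0.43 to −0.35 for lysosome, 0.36 to 0.41 for NF-κB and 0.14 to 0.30 for immediate early genes. With the replicate block 1349 genes were higher and 215 lower. Deviations of same-numbered PF libraries from their group means had correlations of −0.129, 0.05 and 0.0731. WT PF library 1 had 0.169 with AMPKβ1-/- PF library 2, and WT PF library 3 had 0.16 with AMPKβ1-/- PF library 1. These deviations also hold each library's GC slope, so they cannot tell whether the numbers pair libraries. Genes near 3 counts, such as *Gla* and *Cd55*, are limited by depth.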

Other observations

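Cell cycle genes showed little common movement with PF, with 4 of 37 higher and 5 lower, and 2 lower without AMPKβ1-/- PF library 1. *Cenpe*, a kinetochore motor, was called higher (2.49, and 1.66 with the offset) and the inhibitor *Cdkn1b* was called (0.82) but not with the offset (0.32) or without WT PF library 1 (0.72) or 2 (0.74), whereas *Cdk4* (−0.58) and the licensing factor *Cdt1* (−0.50) were lower. Of 17 lineage factors and CSF receptors, 4 were higher and 4 lower. The repressor *Bhlhe40* was at 33.8, 31.7 and 31.8 CPM in WT and at 11.2, 12.2 and 12.9 CPM in AMPKβ1-/- BMDMs (log2 fold change −1.42, edgeR's adjusted p = 3.55e-07), its relative *Bhlhe41* was lower (−0.74), and *Maf* was higher (0.79). *Kit*, the stem cell factor receptor, was called lower (−2.05), at under 5 CPM in every library.

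Complement genes were higher in 2 and lower in 2 of 11. The regulator *Cd55* (1.84) was called, but not with the offset (0.77), and without WT PF library 3 *Cd55* was at 2.52. *C1qb* (−0.30) and *Cfp* (−0.29) were lower, but with the offset they were at −0.04 and −0.05 and did not pass, and 0 members were lower without WT PF library 1 or without AMPKβ1-/- PF library 3. Of 7 tested markers of alternative activation 1 was higher, *Klf4* (0.74), and 1 lower, *Tgm2* (−0.65). Of 9 classical markers 2 were higher, *Il1b* and *Socs3* (0.55), and 2 lower, *Cd40* (−0.53) and *Acod1* (−0.86). *Acod1*, the itaconate-making enzyme, was at 60.5, 29.7 and 34.7 CPM in WT and at 25.7, 25.5 and 17.5 CPM in the null cells, so WT PF library 1 stood highest. Without it *Acod1* was at −0.49 and without AMPKβ1-/- PF library 3 at −0.70, and 0 of the 9 markers were lower in either case. *Cd40* did not pass with the offset (−0.34) or without WT PF library 2 (−0.53).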
